A study of Mus musculus with 28 samples.

Results

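Stable broad U3 domains are stretches of the autosomes that carried the chromatin state U3 in all 4 chromatin segmentations of the series without interruption over 5 kb or more. They were chosen by the deposited states themselves and by length, as maximal runs of adjacent 200 bp bins on chromosomes 1 to 19 named U3 in every segmentation. State and length are therefore described and not tested. There were 3112 such domains among 89176 runs of any length that were U3 in all 4, or 3.49% of the runs. The domains covered 23.2 Mb, which was 19.2% of the 120.5 Mb of stable U3 sequence and 0.938% of the autosomes (2472 Mb).

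The cells were mouse embryonic fibroblasts of strain 129s2, taken from embryos of day 14.5 and used at passages 3 to 4. The 4 segmentations describe SirT7-/- (KO) cells under the treatment labelled GS, KO cells under NT, wild type (WT) cells under GS and WT cells under NT. They are called KO-GS, KO-NT, WT-GS and WT-NT here. The labels expand neither GS nor NT, and the series title concerns glucose starvation. Each segmentation was tied by the labels to H3K27me3 and mH2A1 (macroH2A1.1) ChIP libraries, 2 replicates of each target, and the SIRT7 ChIP gave 1 peak list for GS and 1 for NT, both from WT cells. The labels do not give the number of embryos behind a replicate.

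H3K27me3 is the histone mark that Polycomb repressive complex 2 lays down, and it is known to form long blocks over silent developmental genes. MacroH2A1.1 is a splice form of a histone H2A variant whose large macro domain binds ADP-ribose products derived from NAD, and macroH2A is found in broad domains, often together with H3K27me3. SIRT7 is a nuclear deacylase of the sirtuin family that uses NAD as its cosubstrate. The sources at hand do not say what each state from U1 to U4 stands for, or whether the 4 segmentations defined a state alike. Stable therefore means only that the bin bears the name U3 in each file. A pooled segmentation has no replicate values and no known sequencing depth, so the values below are descriptions of the deposited files, and no difference between conditions could be tested.

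The 5 kb rule made the domains long for U3 by construction, and most of them were near that limit. Within 1 segmentation, U3 segments reached 5 kb in 9.39% of cases in KO-GS, 16.9% in KO-NT, 11.6% in WT-GS and 8.03% in WT-NT. The median U3 segment within a single segmentation was 1200 bp in KO-GS, 1800 bp in KO-NT, 1400 bp in WT-GS and 1200 bp in WT-NT. The median run of U3 shared by all 4 was 800 bp, and 90% of the shared runs were no longer than 3000 bp. The domains had a median length of 6400 bp, with quartiles at 5400 and 8200 bp and a mean of 7453 bp. Of the 3112 domains, 1167 (37.5%) were shorter than 6 kb, 425 (13.7%) reached 10 kb, 31 reached 20 kb and 5 reached 30 kb. The 425 domains of 10 kb or more held 5.72 Mb, or 24.7% of all domain sequence. Across the threshold there were 356 runs of 4.6 kb, 334 of 4.8 kb, 291 of 5 kb and 253 of 5.2 kb. In genome order the initial 3 runs just inside lay on chromosome 1 from 21258601 to 21263600, from 36708401 to 36713400 and from 37040601 to 37045600. The initial 3 runs of 4.8 kb, just outside, lay on the same chromosome from 13114801 to 13119600, from 14743801 to 14748600 and from 63722801 to 63727600. The counts showed no gap at the threshold.

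**Figure D1:**
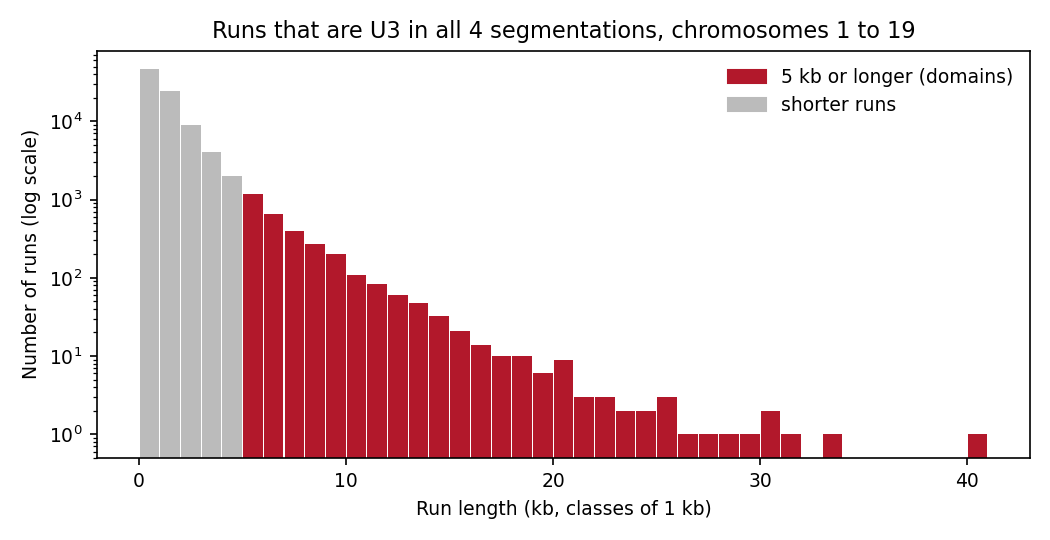
Number of runs that are U3 in all 4 segmentations (vertical axis, log scale) by run length in kb, in classes of 1 kb, for chromosomes 1 to 19. Red bars are the 3112 domains of 5 kb or longer and grey bars are shorter runs. The counts decline without a break at 5 kb, and 5 domains reach 30 kb.

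Long stable runs were less frequent among U3 runs than among U1 or U2 runs, and more frequent than among U4 runs. Stable runs of 5 kb or more numbered 25812 for U1 (1563 Mb), 16052 for U2 (223 Mb) and 4 for U4 (0.030 Mb). Those runs were 73.5% of all stable U1 runs, 27.1% of stable U2 runs and 0.0107% of stable U4 runs, beside 3.49% for U3. Median lengths were 6400 bp for the U3 domains, 17600 bp for U1 and 9400 bp for U2. Of the autosomal U3 in each segmentation, the domains held 11.4% in KO-GS, 11.3% in KO-NT, 11.2% in WT-GS and 12.2% in WT-NT. The domain sequence is the same in all 4, so these shares differ only through total U3. Total U3 was 204, 205, 208 and 190 Mb in that order. The shares of autosomal U3 that were U3 in all 4, in runs of any length, were 59.2, 58.8, 58.0 and 63.4% in the same order.

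The longest domain measured 40.4 kb and lay on chromosome 1 from 134817201 to 134857600 (mm9 coordinates counted from 1, as are all positions here). The U3 segment that held it was 41.2 kb in KO-GS, 46.8 kb in KO-NT, 45.0 kb in WT-GS and 48.8 kb in WT-NT. Its left end was set by KO-GS, where the next bin was U4, and its right end by KO-NT, where the next bin was U1. The longest domain was therefore shorter than the U3 segment of every condition. In the 50 kb on each side U1 made up 46.6% in KO-GS, 58.6% in KO-NT, 46.2% in WT-GS and 48.8% in WT-NT. Most of this U1 lay on the right of the domain, as the plot of states around it shows.

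The next longest domains showed how differently the surroundings can look. The domain of 33.0 kb on chromosome 9 from 43265401 to 43298400 was embedded in U3, which filled 92.6% of its 50 kb flanks in KO-GS, 89.6% in KO-NT, 94.4% in WT-GS and 90.8% in WT-NT. The bins next to it were U3 or U4 in all 4. The domain of 31.8 kb on chromosome 7 from 36247401 to 36279200 sat in U3 segments of 48.0 kb in KO-GS, 47.4 kb in KO-NT, 67.0 kb in WT-GS and 61.8 kb in WT-NT. The U3 segments there were longer in both WT segmentations than in both KO ones. On chromosome 4 from 153916801 to 153947600, a domain of 30.8 kb was set on both ends by KO-NT, whose U3 segment equalled the domain and passed into U1, while the segments measured 41 kb in KO-GS, 41.6 kb in WT-GS and 38.4 kb in WT-NT. On chromosome 7 from 106831401 to 106861600, a domain of 30.2 kb was set on both ends by KO-GS, whose segment equalled it and passed into U4, while the KO-NT segment reached 70.2 kb. The remaining 5 of the 10 longest lay on chromosomes 8 (29.0 kb from 11880201), 5 (28.4 kb from 37465201), 2 (27.2 kb from 180843001), 4 (26.4 kb from 153842201) and 4 again (25.8 kb from 8695401).

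**Figure D2:**
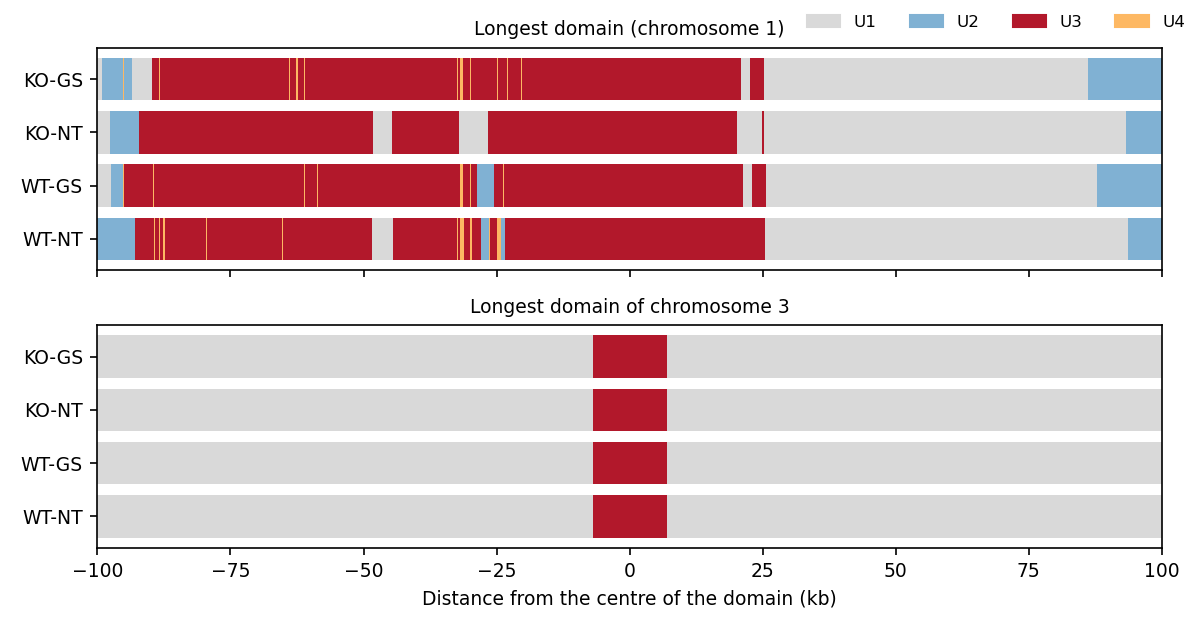
States along 200 kb centred on the longest domain (top, chromosome 1) and on the longest domain of chromosome 3 (bottom), with the distance from the domain's centre in kb on the horizontal axis and 1 row per segmentation, KO-GS, KO-NT, WT-GS and WT-NT from top to bottom. Around the first domain U3 filled 51.9 to 57.2% of the 200 kb, whereas the second is a single 13.8 kb block of U3 with U1 on both sides.

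Among the longest domain of each autosome, lengths ranged from 13.8 kb on chromosome 3 to 40.4 kb on chromosome 1. Chromosomes 14 (25.2 kb from 64348401), 6 (24.6 kb from 127527201), 11 (22.6 kb from 96189401), 16 (22.0 kb from 91174401) and 13 (20.4 kb from 95448001) also had a domain of over 20 kb. On chromosomes 15 (17.4 kb from 102838001), 19 (16.6 kb from 41091601), 17 (16.4 kb from 86173801), 18 (16.4 kb), 12 (15.2 kb from 113608001) and 10 (14.8 kb from 19912001) the longest was shorter than that. No mm9 gene annotation was among the sources used here, so domains were not assigned to genes by computation, and the gene lists drawn up for that purpose were not used. From general knowledge of the mm9 assembly, the domain on chromosome 11 from 96189401 to 96212000 lies in the HoxB cluster and that on chromosome 15 from 102838001 to 102855400 in the HoxC cluster. Hox genes encode transcription factors that set positional identity along the body axis and are textbook targets of Polycomb. No other named domain was placed in this way. These Hox domains therefore do not show what the domains hold in general, or what U3 stands for.

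Both of these Hox domains were parts of much longer U3 and U4 blocks. The unbroken block of U3 and U4 around the chromosome 11 domain was 214 kb in KO-GS, 92.6 kb in KO-NT, 135 kb in WT-GS and 201 kb in WT-NT, and its 50 kb flanks held no U1 in any segmentation. The U3 segment itself was 47.4 kb in KO-GS, 28.0 kb in KO-NT, 29.4 kb in WT-GS and 41.8 kb in WT-NT. Around the chromosome 15 domain the block was 157 kb in KO-GS, 209 kb in KO-NT, 93.2 kb in WT-GS and 143 kb in WT-NT, with U3 segments of 26.6, 78.0, 58.4 and 20.4 kb in that order. The order of the conditions thus differed between the chromosome 11 and chromosome 15 domains. The nearest SIRT7 peak of the GS list was 591 kb from the chromosome 11 domain and 568 kb from the chromosome 15 domain.

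The domains were unevenly spread over the autosomes. Their mean density was 1.25 domains per Mb (SD 0.398 over 19 autosomes), and it ranged 3.36-fold, from 0.583 per Mb on chromosome 3 to 1.96 per Mb on chromosome 7. Chromosome 7 held 299 domains (9.61% of all, beside 6.17% of autosome length), chromosome 4 held 281 and chromosome 2 held 280. Chromosome 3 held 93 domains, 2.99% of all beside 6.46% of length, and chromosomes 10 (91 domains, 0.700 per Mb) and 16 (72 domains, 0.732 per Mb) were similarly sparse. Stable U3, of which the domains are a part, covered from 2.63% of chromosome 3 to 7.22% of chromosome 11. How far domain density followed it was not tested. The share of a chromosome's stable U3 that lay in domains varied less, with a mean of 18.8% (SD 3.03), from 13.8% on chromosome 10 to 24.5% on chromosome 4. Chromosome 11 had the most stable U3 for its length but only 14.6% of it in domains, and its 185 domains came to 1.52 per Mb. Median domain length hardly differed, lying between 6000 and 6800 bp on every autosome.

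**Figure D3:**
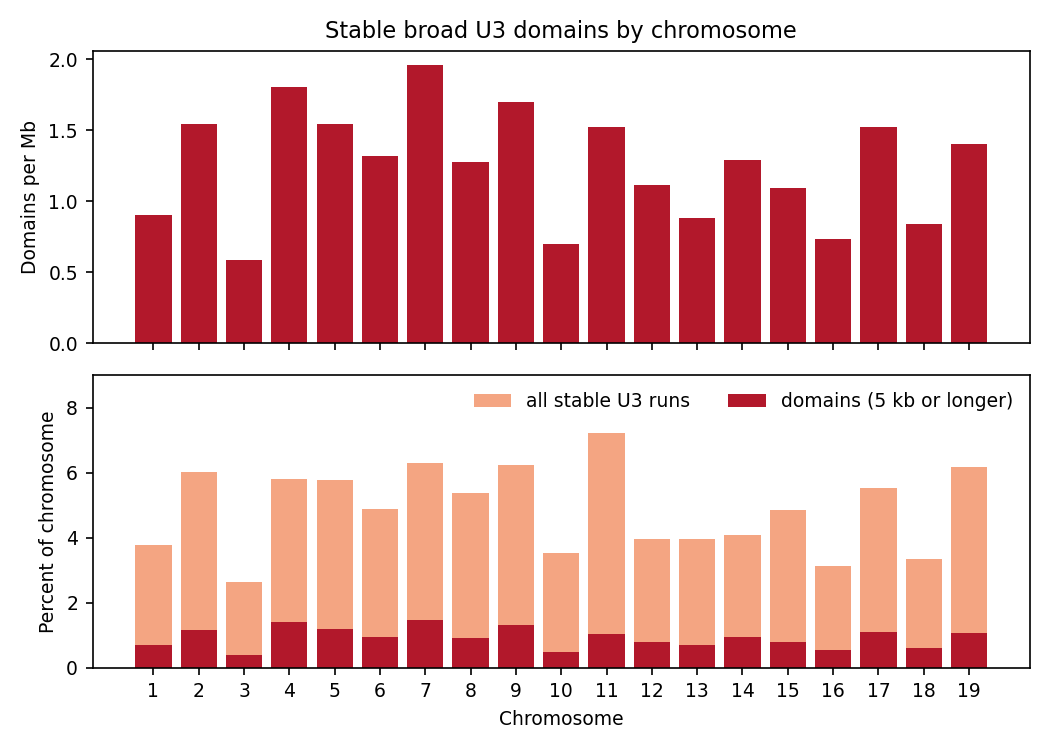
Domains per Mb (upper panel) and the percent of each chromosome covered (lower panel) by all stable U3 runs (light bars) and by domains (dark bars, drawn in front), for chromosomes 1 to 19. Chromosomes 7 and 4 are the densest in domains and chromosome 3 the sparsest, while the most stable U3 for its length is on chromosome 11.

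Along the chromosomes the domains were denser towards the distal end. The final 10 Mb of each autosome held 412 domains, 13.2% of all in 7.69% of the length, or 2.17 per Mb against 1.18 per Mb elsewhere (a ratio of 1.83). The density was higher in the final 10 Mb on 13 of 19 autosomes. It was 4.2 against 0.759 per Mb on chromosome 15, 5.70 against 1.54 on chromosome 4, 5.20 against 1.33 on chromosome 2 and 5.30 against 1.73 on chromosome 7. Chromosomes 2, 4, 7 and 15 held 52, 57, 53 and 42 of the 412 distal domains. The density was lower in the final 10 Mb on chromosomes 1, 3, 5, 6, 13 and 14. Of these, chromosomes 6 and 13 each had 1 domain there (0.100 per Mb, against 1.4 and 0.952 elsewhere). With each autosome cut into 10 equal parts, the last held 15.5% of domains and the 6th 5.85%. All stable U3 runs had 15.1 and 9.34% there, so the excess at the distal end was shared with the shorter runs, and the dip in the 6th part was deeper for the domains.

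Domains clustered. The median gap to the next domain on the same chromosome was 53.8 kb, with quartiles at 10.6 and 449 kb. Of 3093 gaps, 754 (24.4%) were 10 kb or less, and 1236 domains (39.7%) had another domain within 10 kb. Some of these neighbours were parted by very little, since 235 gaps were 1 kb or less and 167 were a single bin. No spacing of shorter runs or of other states is set beside these values. At the other extreme, 153 domains (4.92%) had none within 1 Mb. Of 2482 windows of 1 Mb, 894 (36.0%) held any domain sequence, and 139 windows (5.60%) held 50% of it. Joined across gaps of up to 50 kb, the 3112 domains formed 594 clusters and 1012 single domains.

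The window with the most domain sequence was chromosome 2 from 180000001 to 181000000, where domains covered 31.3% and 31 domains had their midpoint. U3 as a whole covered 64.6% of that window in KO-GS, 61.6% in KO-NT, 65.7% in WT-GS and 62.7% in WT-NT. It was followed by the windows starting at 120000001 on chromosome 5 (25.8% in domains), 134000001 on chromosome 1 (22.5%), 45000001 on chromosome 9 (19.3%) and 42000001 on chromosome 9 (18.3%). In all 5 windows U1 was highest in KO-NT, from 35.8 to 61.8%, against 26.3 to 46.0% in WT-NT. The cluster with the most domains, 19 within 379 kb, lay on chromosome 9 from 44783401 to 45162400. Clusters of 18 domains lay on chromosome 1 from 134467401 to 134857600, which ends with the longest domain of all, and on chromosome 4 from 44453201 to 44710400. The domains filled 57.7% and 58.1% of those spans.

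Domain ends were mostly ends in 1 segmentation alone. Of 6224 ends, 4307 (69.2%) came where a single segmentation left U3 and the other 3 went on in it, 1151 where 2 left, 499 where 3 left and 267 (4.29%) where all 4 left. WT-NT set 1542 of the 4307 single ends (35.8%), KO-NT 1044, KO-GS 969 and WT-GS 752. The state to which they passed differed. Of these single ends, the next bin was U4 for 78.1% in KO-GS, 13.4% in KO-NT, 74.6% in WT-GS and 88.3% in WT-NT, and U1 for 16.8, 81.1, 13.6 and 5.77% in the same order. KO-NT mostly passed to U1 at these ends, and the other 3 segmentations mostly to U4.

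U4 was more frequent beside the domains than over the autosomes in all 4 segmentations, most of all in WT-NT. Over all ends, the adjoining bin was U4 at 26.3% in KO-GS, 8.32% in KO-NT, 21.2% in WT-GS and 38.9% in WT-NT, while U4 covered 1.85, 1.01, 1.71 and 2.12% of the autosomes. It was U1 at 9.01, 21.3, 7.09 and 6.97% of ends, in the same order, and U2 at only 1.74, 1.41, 2.33 and 2.80%, although U2 covered 17.2 to 20.9% of the autosomes. Beside stable U3 runs under 5 kb U2 was similarly scarce, at 1.67, 1.78, 2.48 and 2.70% in that order. Scarce U2 at the ends is thus not particular to the domains. GS minus NT for U4 was 18.0 percentage points in KO (higher in GS on 19 of 19 autosomes) and -17.6 points in WT (lower in GS on 19 of 19). The autosomes come from the same 4 pooled segmentations, so their agreement is no replication. The same directions held beside shorter stable U3 runs, where U4 adjoined 40.8% of ends in KO-GS and 16.3% in KO-NT, and 34.1% in WT-GS and 52.6% in WT-NT. They are thus not particular to the domains, and the shorter runs had more U4 beside them in every segmentation. The bin next to a run is not U3 in at least 1 segmentation by construction, so these shares describe how runs end and are no independent finding.

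**Figure D4:**
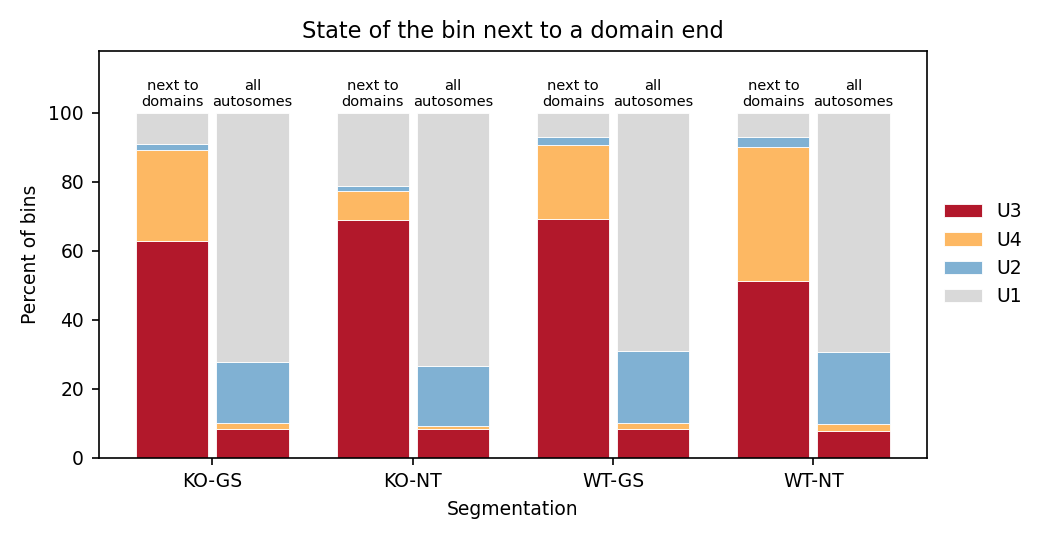
State of the bin next to a domain end (left bar of each pair, 6224 ends) and of all autosomal bins (right bar), as percent of bins, in KO-GS, KO-NT, WT-GS and WT-NT. Beside the domains U4 makes up 8.32% in KO-NT and 38.9% in WT-NT, and U2 is nearly absent in all 4. U2 was similarly scarce beside shorter stable U3 runs, which are not drawn.

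U4 often did no more than interrupt U3. With U3 and U4 counted as 1 class, the next bin was U3 or U4 in all 4 segmentations at 4051 ends (65.1%), and 1448 domains (46.5%) had this on both sides. The 3112 domains lay in 2578 unbroken blocks that were U3 or U4 in all 4, of median length 11.6 kb, and 372 of these blocks held 906 of the domains. Of the gaps between neighbouring domains, 167 were a single bin. That bin was U4 in 58 cases in KO-GS, 15 in KO-NT, 44 in WT-GS and 88 in WT-NT, U2 in 1 case each in KO-NT and WT-NT, and otherwise U3. The longest such block, 148 kb on chromosome 9 from 107243401 to 107391200, held only 3 domains, and U4 made up 19.8% of it in KO-GS, 6.77% in KO-NT, 15% in WT-GS and 24.9% in WT-NT.

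A domain is the U3 stretch shared by every segmentation, so the U3 segment holding it could not be shorter by construction. The lengths below therefore describe only how far U3, alone or with U4, reached around the domains in each condition. The median U3 segment holding a domain was 10.4 kb in KO-GS, 12.6 kb in KO-NT, 11.4 kb in WT-GS and 9.0 kb in WT-NT. The U3 segment equalled the domain in 14.5% of cases in KO-GS, 11.5% in KO-NT, 10.1% in WT-GS and 25.4% in WT-NT. When the segment was followed out to the end of its U3 and U4 block, the median block was 22.4 kb in KO-GS, 19.4 kb in KO-NT, 23.2 kb in WT-GS and 21.0 kb in WT-NT. WT-NT thus had the shortest U3 segments but not the shortest blocks, and KO-NT the longest segments and the shortest blocks. The ends of these blocks touched U1 in 56.4% of cases in KO-GS, 73.0% in KO-NT, 52.4% in WT-GS and 46.0% in WT-NT, and U2 in the rest.

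Beyond the ends, U3 stayed frequent out to 50 kb. In the 50 kb on each side U3 made up 49.7% in KO-GS, 47.2% in KO-NT, 51.8% in WT-GS and 48.7% in WT-NT, which was 6.04, 5.69, 6.17 and 6.32 times its share of the autosomes. It declined with distance, from 61.2% at 5 kb to 40.5% at 50 kb in KO-GS, 57.5 to 38.5% in KO-NT, 63.4 to 42.0% in WT-GS and 59.7 to 40.0% in WT-NT. Around the shorter stable runs U3 made up 38.5, 41.2, 39.1 and 35.3% of the same flanks in that order. U2 was scarcer than over the autosomes, at 10.2% in KO-GS, 6.93% in KO-NT, 11.0% in WT-GS and 13.2% in WT-NT, between 0.404 and 0.636 times its autosomal share. Shorter runs had more U2 around them, from 18.5% in KO-NT to 25.9% in WT-NT.

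Of the 4 conditions, KO-NT had the most U1 around the domains, 44.1% of the flanks against 32.2% in WT-NT, a KO minus WT difference of 11.8 percentage points beside 4.13 points over the autosomes. Around the shorter stable runs U1 was likewise highest in KO-NT, at 35.7% of the flanks against 27.6% in WT-NT, so a higher U1 in KO-NT is not particular to the domains. In GS the KO minus WT difference was 2.37 points (35.6% in KO, 33.2% in WT), beside 3.33 points over the autosomes. U4 in the flanks was 4.45% in KO-GS and 1.83% in KO-NT, and 3.91% in WT-GS and 5.88% in WT-NT. Flanks of neighbouring domains overlap, so the same bins can count more than once.

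**Figure D5:**
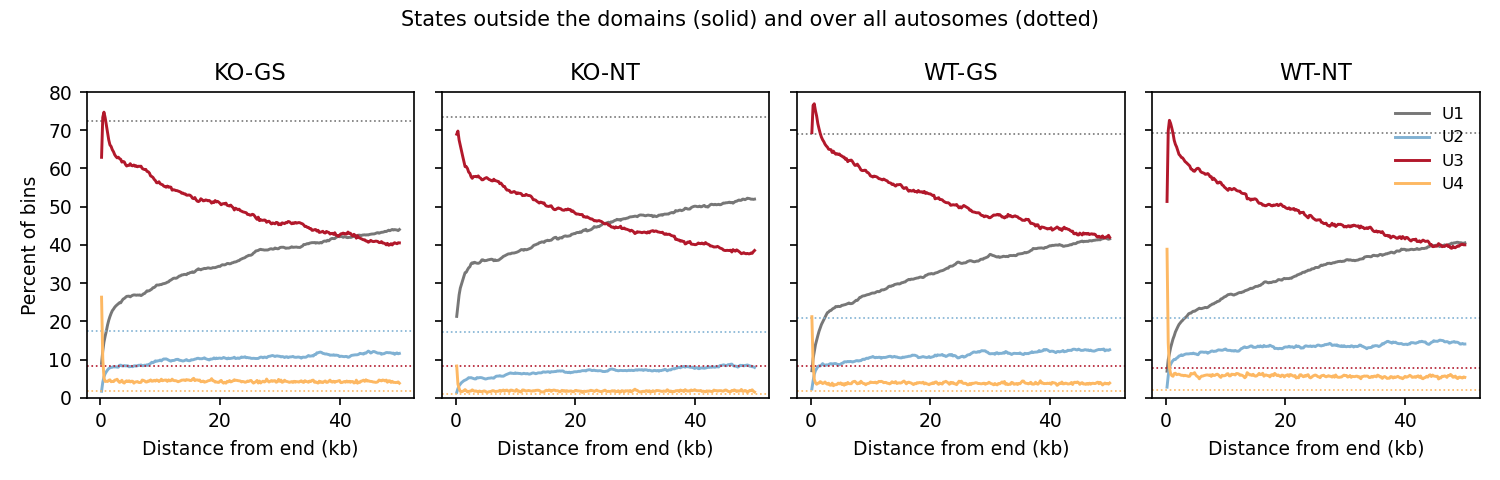
Percent of bins in each state (vertical axis) by distance from the domain end in kb, both sides combined, for KO-GS, KO-NT, WT-GS and WT-NT (solid lines), with the share of each state over all autosomes (dotted lines). U3 stays far above its autosomal share out to 50 kb in all 4 segmentations, and U1 lies highest in KO-NT.

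Flanks of some domains were of nearly 1 kind. In 160 domains (5.14%), on 16 chromosomes, at least 90% of the 50 kb flanks was U3 or U4 in all 4 segmentations. In 9 domains all 4 segmentations left U3 at both ends. On chromosome 3 from 17684801 to 17698600 and on chromosome 12 from 62621401 to 62628000, all of the flanks were U1 in all 4 segmentations. These are lone U3 blocks of 13.8 and 6.60 kb. On chromosome 12 from 52100401 to 52106800, a block of 6.40 kb was nearly as isolated, with U1 at 96.2% in KO-GS, 100% in KO-NT, 98.0% in WT-GS and 100% in WT-NT. Of the other 6 sharply bordered domains, 2 passed to U4 on both sides (chromosome 8 from 126143201 and chromosome 12 from 57794601), and 4 passed to U4 on the left and U1 on the right (chromosome 15 from 63744201 and from 76673201, chromosome 17 from 26999801 and chromosome 19 from 59290401). The nearest GS peak was 36.3 kb away for the block on chromosome 3 and between 130 kb and 5089.5 kb for the other 8.

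SIRT7 peaks of the GS list fell in 5 of the 3112 domains, or 0.161% (exact 95% interval 0.0522 to 0.375%). Of all 334093 autosome windows of 7.4 kb, close to the mean domain length, 0.773% held a GS peak. NT peaks fell in 0 of 3112 domains, which allows a share of up to 0.0964%, and in 0.0207% of the windows, so at this number of domains the 0 cannot be told apart from the background. GS peaks lay over 0.0157% of domain bases, against 0.0546% of the bases in stable U2 runs of 5 kb or more, 0.160% in stable U1 runs and 0.129% in all windows. These differences carry no test here, because each list combines its replicates, and the intervals cover counting error only. The rule for the domains made no use of SIRT7.

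The 5 peaks met the domains in different ways. On chromosome 1 from 34809647 to 34809988, a peak of 342 bp with score 865 lay wholly in a domain of 7600 bp beside its left end. On chromosome 15 from 101452456 to 101454191, a peak of 1736 bp with score 569 likewise lay wholly in a domain, of 8400 bp, by its left end. Both were U3 over their whole length in all 4 segmentations. The other 3 peaks ran across a domain end. On chromosome 1 from 54514190 to 54515168 (score 629), 62.4% of the peak was in the domain and the rest was U2 in KO-NT and U3 in KO-GS, WT-GS and WT-NT.

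On chromosome 2 from 27113459 to 27114818 (score 580), 25.1% of the peak was in the domain, and the rest was U1 in KO-GS, KO-NT and WT-GS, whereas in WT-NT U3 covered 98.7% of the peak. On chromosome 1 from 132755519 to 132758218 (score 768), 22.9% of the peak lay in the domain, and the rest was U2 in KO-GS, U3 in KO-NT and U1 in WT-GS, while in WT-NT U3 covered 45.1% of the peak and U2 54.9%. The scores, from 569 to 865, lay on both sides of the median of 629 for autosomal GS peaks. All 5 peaks thus lay at or near a domain end rather than in the middle of a domain.

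GS peaks were also far from most domains. The median distance from a domain to the nearest GS peak was 925 kb, with quartiles at 433 and 1859 kb, against 530 kb from stable U2 runs of 5 kb or more, 448 kb from stable U1 runs and 497 kb from the autosome windows. Within 10 kb of a GS peak lay 32 domains (1.03%), beside 2.50% of the windows, and within 100 kb 211 domains (6.78%), beside 15.6%. From the side of the peaks, 27 of 2272 autosomal GS peaks (1.19%) and 0 of 58 NT peaks were within 10 kb of a domain. The highest score among those 27 was 963, for a peak on chromosome 9 from 69556893 to 69559093 that stopped 307 bp before the domain from 69559401 to 69568400. The next, with score 876, lay on chromosome 8 from 106800857 to 106802526 and stopped 274 bp before the domain from 106802801 to 106810400. Of the NT peaks, 1 (1.72%) was within 50 kb and 7 (12.1%) were within 100 kb of a domain. For GS peaks these shares were 3.39 and 6.29%. The share of the autosomes this close to a domain was not computed, so the counts of peaks have no background beside them. Counted from the domains, 2 (0.0643%) were within 50 kb of an NT peak, beside 0.248% of the windows. Within 100 kb of an NT peak lay 12 domains (0.386%), beside 0.475% of the windows.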

How the data were processed

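The series holds 28 ChIP and input libraries. Per the submitters' processing notes, the tools included MACS 1.4.2 and Bowtie, and builds mm9 and hg19 are both listed without a role. Chromosome ends in the segmentations were those of mm9. No label or file names the segmentation tool. The authors deposited 1 segmentation per genotype and treatment, giving each segment of 200 bp bins a state name, and 1 SIRT7 peak list per treatment with a score per peak whose meaning is not stated. The score was used only within a list. Each of the 6 files combines the 2 replicates of its ChIP targets, depth is unknown, and no batch is labelled. The names of the peak lists carry the term gIDR, which the labels do not explain. How the replicates were combined is therefore not known.

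Runs, their neighbours and overlaps of at least 1 bp were computed with Python 3.11.15, NumPy 2.4.6 and SciPy 1.17.1, and run finding was tested on simulated segmentations. Shares have exact (Clopper-Pearson) 95% intervals, and a count of 0 allows up to 3 counts. No hypothesis test was run. Named regions were the 10 longest domains, the longest of each autosome, those with a SIRT7 peak, those nearest the threshold and the 5 fullest windows of 1 Mb. Clusters, sharply bordered domains and peaks near domains were chosen after their values were seen. Members and lists were chosen with earlier results of these data known. Gene annotation of another build was not used, and no sequence is printed.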

Additional observations from a re-analysis of the deposited data

Results flagged for a closer look

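The bins beside the domain ends changed in opposite directions between treatments in the 2 genotypes, which was not tested. GS minus NT for U4 was 18.0 percentage points in KO and -17.6 points in WT. Over all autosomes it was 0.843 and -0.413 points, and the directions were the same beside shorter stable U3 runs. By the state of most of the adjoining 1 kb instead of the single adjoining bin, the U4 shares were far closer, at 4.11% in GS and 1.19% in NT for KO, and 3.47% in GS and 7.20% in NT for WT. For U3 in the single adjoining bin, GS minus NT was -6.04 points in KO and 18.0 points in WT. With 1 pooled segmentation per condition, a difference between treatments and a difference between segmentation runs cannot be told apart.

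Chromosome X lies outside the autosomes used above. It held 193 runs of 5 kb or more that were U3 in all 4 segmentations, 1.16 per Mb, with a median of 6400 bp and a longest run of 18600 bp.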

How the results depend on the processing

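The number of domains and their length follow the definition. A minimum of 2 kb gave 18074 runs, 66.3 Mb in all and a median of 3000 bp, and a minimum of 10 kb gave 425 runs, 5.72 Mb and 12200 bp. Joining runs across a single bin gave 6024 domains, 52.1 Mb and a median of 7200 bp. Counting U4 as U3 gave 9809 domains and 111 Mb. Leaving out 1 segmentation cannot lower the total, by construction. The domains came to 30.1 Mb without KO-GS, 31.4 Mb without KO-NT, 27.9 Mb without WT-GS and 34.9 Mb without WT-NT. Only the total without WT-NT was more than 1.5 times that from all 4 segmentations. GS peaks met 3 domains when 50% of the peak had to overlap, 3 when the upper 50% of peaks by score were used, and 32 when a distance of 10 kb was allowed. NT peaks met 0 domains with that distance allowed.

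The ends and surroundings moved with the window, and values here are for KO-GS, KO-NT, WT-GS and WT-NT in that order. By the state of most of the adjoining 1 kb, ends were next to U1 at 14.6, 26.9, 12.1 and 11.6%, U2 at 5.41, 3.18, 5.98 and 7.78% and U4 at 4.11, 1.19, 3.47 and 7.20%. By the bin next to the U3 segment of the same segmentation, U1 stood at 30.8, 52.5, 31.2 and 24.2%, U2 at 7.70, 8.66, 10.2 and 8.97% and U4 at 61.5, 38.8, 58.6 and 66.8%. In flanks of 10 kb, U1 made up 25.01, 34.8, 22.7 and 21.5%, U2 8.15, 5.18, 8.89 and 11.2%, U3 61.9, 58.0, 64.2 and 60.6% and U4 4.92, 1.95, 4.25 and 6.77%. U4 at the ends was higher in GS than NT in KO and lower in WT under both alternatives, with the smallest gaps by the adjoining 1 kb. The cause of these shifts was not tested.

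No paired analysis was possible because every file combines its replicates, has no replicate columns and gave no test. Overlap of domains with genes was not run, since no mm9 annotation was used here. Depth is unknown, so what it limits cannot be stated.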
